A study of Mus musculus with 6 samples.

Results

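The genes described here are the regulators of the hypoxia-inducible factors (HIF) and the HIF target genes that lie outside glycolysis, in cultured mouse aortic smooth muscle cells. They were chosen by symbol from a list of 39 genes, of which 36 were in the deposited table of 12389 genes and all 36 were tested. The expression of Ankrd37, Hif3a and Car9 was not analysed here. Of the 36 genes, 11 are HIF subunits, oxygen-sensing hydroxylases and other regulators, and 25 are targets.

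Messenger RNA was sequenced from primary vascular smooth muscle cells, which contract to narrow the artery and here grew out of pieces of thoracic aorta. There were 3 wild-type (WT) libraries and 3 from mice with a smooth muscle-specific knockout of LRRC8A (KO), the obligatory subunit of the volume-regulated anion channel. All 6 cultures were kept in serum-containing medium at 37 °C and 5% CO2, were used at passage 6 or below and received no treatment. No step under low oxygen was described. Mouse age, sex, strain, the Cre driver and the deleted exons were not stated. The genotype label calls all 6 libraries wild type, and the groups here follow the sample titles. Estimated depth ran from 31.0 to 47.9 M reads per library. Lrrc8a, the deleted gene, had 2578, 2194 and 1221 scaled reads in the WT libraries and 868, 673 and 506 in the KO libraries, each in the order of replicates 1, 2 and 3, which holds for all such series of values here. The groups did not overlap, at a log2 difference of -1.51 (SE 0.34), yet with an adjusted p of 0.999 in limma. The FDR of Lrrc8a in the authors' deposited table was 0.0196. Thus limma did not call even the deleted gene, and a member it did not call is not shown to be without a difference. Scaled reads are the deposited values, estimated reads divided by a factor for each library. Reads from exons that were not deleted would still be counted, and whether they make up the KO values of Lrrc8a was not tested.

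The smooth muscle label was checked against 8 markers, of which 6 were in the table and Des and Myocd were not. Their summed level ran from 16520 to 205102 scaled reads in WT and from 31498 to 106017 in KO, led by Acta2 and Tagln, and was highest in replicate 3 of each genotype. Its members differed, with log2 differences of 0.14 (SE 1.02) for Acta2 and 0.56 (SE 1.23) for Tagln in limma. Of the 6, 4 lay below 0 in limma, against 49.6% of all genes. Myh11, smooth muscle myosin, had 90.1, 152 and 1656 scaled reads in WT and 41.7, 20.8 and 96.8 in KO. It was lower in KO in all 3 pairs, at -2.63 (SE 1.16), with an unadjusted p of 0.0565 in limma and 0.00803 in limma with the replicate number as a block. Lmod1, which nucleates actin filaments, was also lower in all 3 pairs, at -2.46 (SE 1.37), as was Smtn at -0.26 (SE 0.19), and Cnn1 stood at -1.36 (SE 1.80) in limma. The summed level of 6 proliferation markers, led by Top2a and Mki67, ran from 4877 to 20475 in WT and from 4949 to 33514 in KO, again highest in replicate 3 of each. Of 5 endothelial markers only Kdr was in the table, and of 5 leukocyte markers only Cd68 and Csf1r, without the pan-leukocyte gene Ptprc. The summed endothelial level was 21.3 to 433 scaled reads over all 6 libraries, and the leukocyte level 842 to 933 in WT and 295 to 957 in KO. Fibroblast markers, led by Dcn and Dpt, summed to between 18011 and 31215 in WT and between 16870 and 40166 in KO. In WT replicates 1 and 2 this sum was above that of smooth muscle, at 31215 against 16520 and 25756 against 25282. The same held in KO replicate 2, at 40166 against 32534, and not in the other libraries. These sums cover 5 and 6 genes and were not divided by exon length, so they do not rank the cell types. Exons cover 2196 bases in Acta2 and 1988 in Tagln, and 5838 in Dcn and 1724 in Dpt. Mesothelial and epithelial markers, led by Upk3b and Msln, summed to between 5562 and 9936 in WT and between 1098 and 6769 in KO. The part of these differences in the results below was not tested, and in bulk RNA fewer cells of a type and less RNA per cell cannot be told apart.

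HIF is a pair of proteins, an oxygen-labile alpha subunit (HIF1A, EPAS1 or HIF3A) and a stable partner (ARNT or ARNT2). With oxygen present, prolyl hydroxylases of the EGLN family mark the alpha subunit, the VHL ubiquitin ligase binds the mark and the protein is destroyed, while HIF1AN hydroxylates an asparagine and blocks coactivator binding. When oxygen is scarce the alpha subunit persists, enters the nucleus and binds hypoxia response elements, whose core reads ACGTG or GCGTG. Its targets serve blood supply, mitochondrial turnover, collagen maturation, lipid storage and the restraint of growth, and some, such as Egln3, feed back on HIF itself. Control of the alpha subunit is largely at the protein, which was not measured here.

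Promoter sequences are shown for 4 genes as examples of windows with and without the core of the element that HIF binds. Egln3, Fam162a and Adm had lower values in all 3 KO libraries than in the same-numbered WT libraries, and Vldlr had higher values in all 3. Each sequence, from RefSeq on GRCm38.p6, runs 5′ to 3′ on the strand of the gene up to its start or its first annotated exon. Capitals mark ACGTG or GCGTG and their reverse complements CACGT or CACGC. The windows are chr12:54203875-54204124 (minus strand) for Egln3, chr16:36071595-36071811 (minus) for Fam162a, chr7:110627407-110627656 (plus) for Adm and chr19:27216234-27216483 (plus) for Vldlr.
Egln3: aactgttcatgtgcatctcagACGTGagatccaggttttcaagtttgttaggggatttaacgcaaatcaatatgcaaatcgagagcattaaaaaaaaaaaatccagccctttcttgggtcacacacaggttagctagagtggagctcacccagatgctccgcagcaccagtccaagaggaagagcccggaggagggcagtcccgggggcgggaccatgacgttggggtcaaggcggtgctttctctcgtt
Fam162a: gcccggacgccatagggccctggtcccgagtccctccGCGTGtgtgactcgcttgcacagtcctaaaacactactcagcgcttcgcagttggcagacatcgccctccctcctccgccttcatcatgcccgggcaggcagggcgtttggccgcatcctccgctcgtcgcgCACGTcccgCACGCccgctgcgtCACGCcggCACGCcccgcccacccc
Adm: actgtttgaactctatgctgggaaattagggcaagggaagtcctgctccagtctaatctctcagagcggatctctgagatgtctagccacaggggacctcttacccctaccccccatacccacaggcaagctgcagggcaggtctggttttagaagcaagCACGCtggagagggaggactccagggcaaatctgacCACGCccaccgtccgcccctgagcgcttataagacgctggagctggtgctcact
Vldlr: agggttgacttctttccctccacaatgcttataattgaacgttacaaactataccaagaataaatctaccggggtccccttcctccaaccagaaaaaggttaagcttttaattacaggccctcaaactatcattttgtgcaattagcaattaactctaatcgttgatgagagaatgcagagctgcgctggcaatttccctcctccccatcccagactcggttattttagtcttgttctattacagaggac

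The Egln3 window held 1 core, the Fam162a window 5 and the Adm window 2, and the Vldlr window held none. These 4 were picked with their values known, so they cannot show whether a core goes with a direction. The window of Stc2, also higher in KO in all 3 pairs, held 1 core on each strand. A link between cores and direction over the members was not tested. Of the 39 listed genes, 32 had a promoter entry spanning 250 bases before to 50 bases after a start. Ankrd37, Hif3a and Car9, whose expression was not analysed, are among the 32, and each held a core. A core on either strand was found in at least 1 window for 27 of the 32 genes (84.4%), against 46.7% of all 27025 genes with an entry. By window the shares were 76.7% of 43 member windows and 43.8% of 32851 windows in all. In the palindrome CACGTG the core lies on both strands, and base composition was not matched between the members and all genes. Such a match describes letters and is no evidence of binding.

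No gene of the 36 passed an adjusted p of 0.05 between KO and WT, where limma also called 0 of 12363 genes (0%) and 447 had an unadjusted p under 0.05. At an unadjusted p under 0.05 there was 1 member higher in KO, Vldlr (background 1.46% of all genes), and 1 lower, Egln3 (background 2.15%), or 2 of 36 in either direction against 3.62%. Below 0 lay the log2 differences of 23 of 36 members, against 49.6% of all genes, with 4 of 11 regulators and 19 of 25 targets among them. The median difference was 0.07 for the regulators, -0.29 for the targets and 0.00 for all genes. The pooled SD within groups of each library's median deviation was 0.047 for the regulators and 0.15 for the targets. Between same-numbered libraries 1, 2 and 3 the median was 0.05, 0.09 and -0.02 for the regulators. For the targets it was -0.31, -0.13 and -0.25. These medians were not tested. All differences are of log2(scaled reads + 2), KO minus WT, from limma, and understate the change of low genes. The adjusted p of each member in limma was 0.999.

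Hif1a, the best-known alpha subunit, lies on chromosome 12 from 73901375 to 73947530 (GRCm38) and had 6661, 9631 and 6246 scaled reads in WT and 5587, 7285 and 3715 in KO. Each KO library lay below the WT library of the same number, although the groups overlapped. The log2 difference was -0.47 (SE 0.31), with an unadjusted p of 0.171 in limma and of 0.0466 in limma with the replicate number as a block. Epas1, the alpha subunit typical of endothelium and perivascular cells, had 415, 128 and 30.9 in WT and 196, 112 and 285 in KO, so the WT libraries alone differed 13.4-fold. Its log2 difference of 0.62 (SE 0.92, limma) turned to -0.32 when WT replicate 3 was left out.

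The partner Arnt had 2056, 1906 and 1763 scaled reads in WT and 2025, 2033 and 2126 in KO, the narrowest spread among the subunits. Its log2 difference was 0.11 (SE 0.17, limma). Arnt2 had 1297, 2647 and 2890 in WT and 1429, 4038 and 2206 in KO. Here replicate 1 was the lowest of both genotypes, and the log2 difference of 0.12 (SE 0.46, limma) was smaller than its error. Per kilobase of exon, the WT level of Hif1a was 1274 ± 313 scaled reads, above Arnt2 at 296 ± 112, Arnt at 238 ± 18.3 and Epas1 at 34.2 ± 35.7 (SD, n = 3 each). Arnt2 and Arnt lay within their spread of each other, and the KO order was the same, from 938 ± 303 for Hif1a to 35.4 ± 15.5 for Epas1 (SD, n = 3 each).

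Egln3, the prolyl hydroxylase that is itself a strong HIF target, lies at 54178981 to 54203860 of chromosome 12 and had 173, 165 and 183 scaled reads in WT and 70.6, 41.6 and 79.0 in KO. The highest KO library was below the lowest WT library, and the WT mean of 173 ± 9.09 was 2.72-fold the KO mean of 63.7 ± 19.6 (SD, n = 3 each). The log2 difference was -1.46 (SE 0.51), with an unadjusted p of 0.0242 and an adjusted p of 0.999 in limma. The two-sided p of an exact permutation test was 0.1, the smallest possible with 3 libraries a group. Under 16 other settings the log2 difference ran from -1.64 to -1.19. The unadjusted p was over 0.05 in limma without WT replicate 1 (0.065), WT replicate 2 (0.0749), WT replicate 3 (0.0609) or KO replicate 2 (0.0616).

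The other hydroxylases showed no such separation. Egln1, the main oxygen sensor of most cells, had 1795, 2583 and 3939 scaled reads in WT and 2213, 2932 and 3067 in KO, with replicate 1 the lowest and replicate 3 the highest in both genotypes. Its log2 difference was 0.04 (SE 0.31, limma). Egln2 had 1526, 1754 and 2580 in WT and 2146, 2017 and 2549 in KO, a log2 difference of 0.22 (SE 0.25, limma). Per kilobase of exon in WT, Egln1 stood at 771 ± 302, Egln2 at 698 ± 198 and Egln3 at 65.2 ± 3.41 (SD, n = 3 each), so Egln1 and Egln2 did not differ beyond their spread and Egln3 was the lowest. In KO, Egln3 stood at 23.9 ± 7.37 per kilobase (SD, n = 3).

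Vhl, the substrate receptor of the ligase that destroys HIF alpha, had 1092, 1145 and 937 scaled reads in WT and 1192, 997 and 954 in KO, a log2 difference of -0.02 (SE 0.20, limma). Hif1an, the asparaginyl hydroxylase, had 2142, 1892 and 2200 in WT and 2225, 2120 and 2189 in KO, a log2 difference of 0.07 (SE 0.17, limma). Both had overlapping groups and a narrow spread. Siah2, a ubiquitin ligase for EGLN proteins, had 227 ± 27.1 in WT and 267 ± 27.8 in KO, and Cited2, which competes with HIF for coactivators, had 3803 ± 932 and 3335 ± 855 (SD, n = 3 each). Their log2 differences were 0.23 (SE 0.27) and -0.19 (SE 0.27) in limma.

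**Figure D1:**
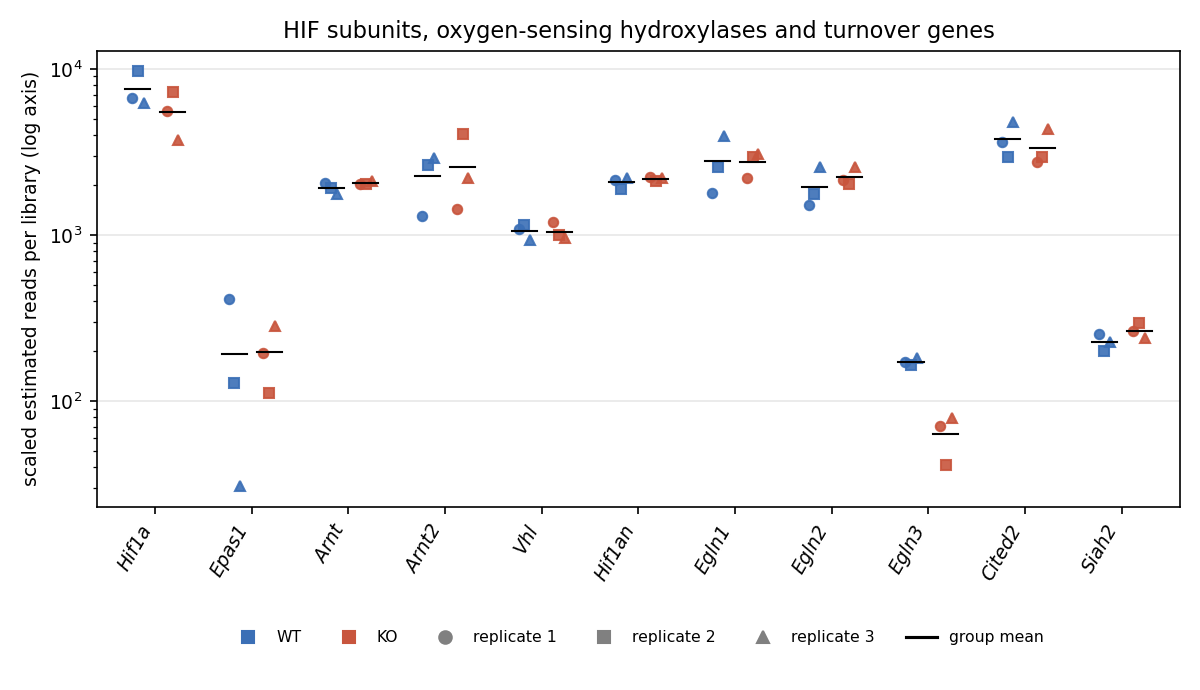
Scaled estimated reads per library (log axis) of the 11 measured HIF subunits, hydroxylases and turnover genes. WT is blue, KO is red, the marker shape gives the replicate number and the bar the group mean (n = 3 each). The groups are apart for Egln3, at 165 to 183 in WT and 41.6 to 79.0 in KO, and overlap for the other 10 genes.

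Among secreted targets, Adm, the vasodilator peptide adrenomedullin, had 698, 1034 and 1286 scaled reads in WT and 527, 602 and 1081 in KO. Each KO library was below its same-numbered WT library, with overlapping groups and a log2 difference of -0.48 (SE 0.35, limma). Vegfa, the main angiogenic growth factor, had 6996, 4984 and 2561 in WT and 5254, 3851 and 3175 in KO, with replicate 1 the highest and replicate 3 the lowest in both genotypes. Its log2 difference was -0.16 (SE 0.39, limma). Stc2, a secreted glycoprotein linked to calcium and stress, had 2005, 511 and 89.4 in WT and 2644, 1187 and 414 in KO. Its WT libraries spanned 22.4-fold, yet the KO library was above the WT library in each numbered pair, by 0.40, 1.21 and 2.19 on the log2 scale. Mif, the macrophage migration inhibitory factor, had a log2 difference of -0.17 (SE 0.51, limma) and went both ways among the pairs.

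The mitochondrial and mitophagy targets had log2 differences below 0 for all 5 genes in limma, against 49.6% of all genes. Of these, 1 gene, Fam162a, was lower in KO in all 3 pairs. The differences of Bnip3, Bnip3l, Higd1a and Ak4 each changed sign under some other setting. Fam162a, a mitochondrial protein linked to hypoxic cell death, lies at 36043761 to 36071594 of chromosome 16 and had 1477, 1095 and 1405 scaled reads in WT and 1011, 1002 and 932 in KO. The groups did not overlap, and the log2 difference was -0.42 (SE 0.20), with an unadjusted p of 0.0716 and an adjusted p of 0.999 in limma. Of its 850 exon bases, 168 are shared with Wdr5b on the opposite strand, and whether counting used strand is not given, so its level is uncertain. Fam162a and Egln3 were the 2 members lower without overlap, against a background of 4.51% of all genes, and 0 members were higher without overlap, against 3.91%. The lower count, 2 of 36, is close to the background share.

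Bnip3, a receptor that directs mitochondria to autophagy and a classical HIF target, ran from 664 to 749 scaled reads in WT and from 641 to 743 in KO. The groups overlapped, with a log2 difference of -0.08 (SE 0.20, limma). Its relative Bnip3l had 3411, 4640 and 3690 in WT and 3787, 4175 and 2390 in KO, a log2 difference of -0.21 (SE 0.27, limma). Ak4, a mitochondrial adenylate kinase, had 667, 175 and 246 in WT and 142, 348 and 24.1 in KO. Both genotypes held high and low libraries, and its log2 difference of -1.49 (SE 1.0, limma) was the lowest of the members but turned to 0.072 with library quality weights, which gave WT replicate 2 a weight of 7.99 against 0.494 and 0.376 for WT replicates 1 and 3. Higd1a, a respiratory chain assembly protein, had a log2 difference of -0.29 (SE 0.31, limma). Car12, a cell-surface carbonic anhydrase, was low at 67.6 to 267 scaled reads in WT and 65.9 to 235 in KO.

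The collagen- and matrix-modifying targets had a median log2 difference of -0.45 over 6 genes. P4ha2, a subunit of collagen prolyl 4-hydroxylase, had 4558, 3041 and 3716 scaled reads in WT and 3254, 2076 and 2514 in KO. The KO libraries lay below WT by 0.49, 0.55 and 0.56 on the log2 scale in the 3 pairs, the most even shift of any member with all pairs below 0. The groups overlapped, and the log2 difference was -0.53 (SE 0.25, limma). Plod1, a collagen lysyl hydroxylase, had 2971, 2492 and 2164 in WT and 2257, 1714 and 1912 in KO, a log2 difference of -0.37 (SE 0.21, limma). Ero1l, the oxidase that drives disulfide formation in the endoplasmic reticulum and is also called Ero1a, had 5200, 13776 and 3924 in WT and 3536, 5114 and 1550 in KO. KO was lower in all 3 pairs, WT replicate 2 stood above all other libraries, and the log2 difference was -1.11 (SE 0.60, limma).

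P4ha1, another catalytic subunit of prolyl 4-hydroxylase, had 10318 scaled reads in WT replicate 2 and 10557 in KO replicate 2, and 9968 and 9742 in replicates 3. Its log2 difference of -0.24 (SE 0.22, limma) came largely from replicates 1, at 13719 in WT and 8251 in KO. Plod2, which makes the cross-link sites of fibrotic collagen, had 22175, 18123 and 19028 in WT and 44580, 4008 and 5972 in KO. Thus the KO libraries spanned 11.1-fold, on either side of WT values that differed by 1.22-fold. Its log2 difference was -0.95 (SE 0.87), and without KO replicate 1 it was -2.01 (SE 0.29), with an unadjusted p of 3.03e-04 and an adjusted p of 0.415 in limma. Lox, the secreted oxidase that cross-links collagen and elastin, was the highest member per kilobase of exon, with a mean of 20877 ± 6367 for WT and of 23075 ± 10092 for KO (SD, n = 3 each) and a log2 difference of 0.07 (SE 0.46, limma).

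Among targets that restrain growth or act in the nucleus, Bhlhe40, a circadian and hypoxic transcriptional repressor, had 5215, 2537 and 2338 scaled reads in WT and 2374, 2421 and 1463 in KO. The pairs differed by -1.14, -0.07 and -0.68, so the log2 difference of -0.63 (SE 0.37, limma) rested on replicates 1 and 3. Ndrg1, a stress-responsive protein, had 5832, 2115 and 2427 in WT and 2477, 2699 and 589 in KO, a log2 difference of -0.97 (SE 0.68, limma). Kdm3a, a histone H3 demethylase that needs oxygen, had 2834, 2473 and 3111 in WT and 2349, 2498 and 1465 in KO. Its difference of -0.45 (SE 0.25, limma) came mostly from KO replicate 3. Rora, a nuclear receptor, had 2103, 2351 and 890 in WT and 1697, 1795 and 417 in KO. Replicate 3 was the lowest in both genotypes, and the pairs differed by -0.31, -0.39 and -1.09.

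Mxi1, an antagonist of MYC, had 1253, 1258 and 941 scaled reads in WT and 1506, 1166 and 1613 in KO, a log2 difference of 0.31 (SE 0.22, limma). Ddit4, which restrains mTOR signalling, had 2439 ± 612 in WT and 2850 ± 734 in KO, and Narf, which binds prelamin A in the nucleus, had 851 ± 294 and 950 ± 175, respectively (SD, n = 3 each). These 3 targets had positive differences, at 0.23 (SE 0.28) for Ddit4 and 0.21 (SE 0.32) for Narf in limma, with overlapping groups.

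The lipid targets went in opposite directions. Vldlr, the very low density lipoprotein receptor, lies at 27216484 to 27254231 of chromosome 19 and had 1240, 1582 and 483 scaled reads in WT and 3836, 3051 and 1352 in KO. The KO mean was 2.49-fold the WT mean, but KO replicate 3 lay below WT replicate 2, so the groups overlapped. The log2 difference was 1.35 (SE 0.56), with an unadjusted p of 0.047 and an adjusted p of 0.999 in limma. Under 16 other settings it ran from 0.84 to 1.80. The unadjusted p was over 0.05 in limma without WT replicate 1 (0.0669), WT replicate 3 (0.121), KO replicate 1 (0.133) or KO replicate 2 (0.121). Hilpda, a lipid droplet protein that inhibits triglyceride breakdown, had 269, 388 and 497 in WT and 199, 250 and 303 in KO. KO was lower in each pair, by 0.43, 0.63 and 0.71 on the log2 scale, although the groups overlapped, and the difference was -0.59 (SE 0.33, limma).

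**Figure D2:**
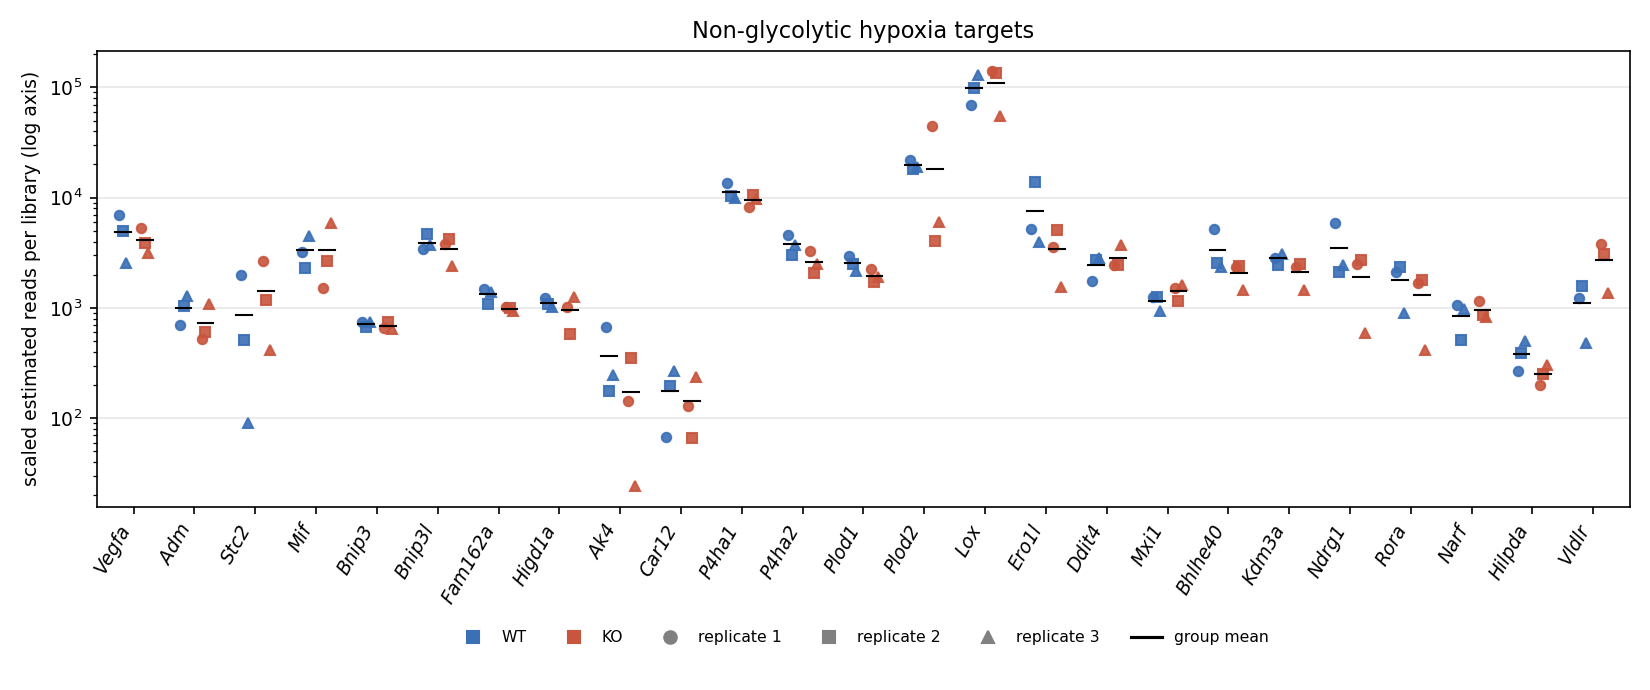
Scaled estimated reads per library (log axis) of the 25 measured targets, grouped by role, with WT blue, KO red, marker shape for replicate number and a bar for the group mean (n = 3 each). By group mean Vldlr stands higher in KO and Hilpda, P4ha2 and Fam162a lower, and of these only Fam162a has groups that do not overlap. Plod2 in KO runs from 4008 to 44580 and Stc2 in WT from 89.4 to 2005.

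Much of the variation ran with the replicate number. Same-numbered WT and KO libraries deviated together from their group means across all genes, though less so in replicate 2. The comparison was therefore also made within numbered pairs. This pairing was taken from the same data, and the p-values with the block do not allow for that. Over the 36 members, the median share of the variation (sum of squares of log2 values) that lay between replicate numbers was 50.045%, and between genotypes 18.6%. Over all genes the shares were 54.9% and 10.3%. The replicate number has more levels than the genotype, so the shares of the 2 terms are not on a par. The share between replicate numbers was 86.1% for Arnt2, 85.5% for Vegfa, 84.2% for Rora, 83.6% for Egln1, 82.9% for Cited2 and 79.9% for Stc2, the 6 members with the highest, and 8.12% for Egln3. Egln3 was the member with the highest share between genotypes, at 87.4%, followed by Fam162a at 69.9%.

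Within the pairs, 11 of 36 members were lower in KO in all 3, where 15% of all genes were, and 3 were higher in all 3, where 15.7% were. The 11 were Hif1a, Egln3 and Cited2 of the regulators and Adm, Fam162a, P4ha2, Plod1, Ero1l, Bhlhe40, Rora and Hilpda of the targets. The 3 were Siah2, Stc2 and Vldlr. With the replicate number as a block in limma, 7 members had an unadjusted p under 0.05 and were lower in KO, against 4.25% of all genes, and 2 were higher, against 3.17%, which makes 9 of 36 in either direction against 7.42%. In limma with the block the unadjusted p of the lower members was 0.00312 for Ero1l, 0.0164 for P4ha2, 0.0239 for Egln3, 0.0366 for Rora, 0.0422 for Bhlhe40, 0.0435 for Hilpda and 0.0466 for Hif1a. In limma with the block that of the higher members was 6.38e-04 for Vldlr and 0.0138 for Stc2.

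No member passed over all genes with the block either, and the smallest adjusted p was 0.259, for Vldlr in limma. Of these 9, Egln3 and Vldlr had an unadjusted p under 0.05 without the block. When both libraries of a replicate number were left out of the blocked comparison in turn, 3, 4 and 4 members were lower at an unadjusted p under 0.05 without replicates 1, 2 and 3, against 3.27%, 3.05% and 5.96% of all genes. Those higher numbered 2, 2 and 3, against 3.42%, 2.15% and 4.7%.

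**Figure D3:**
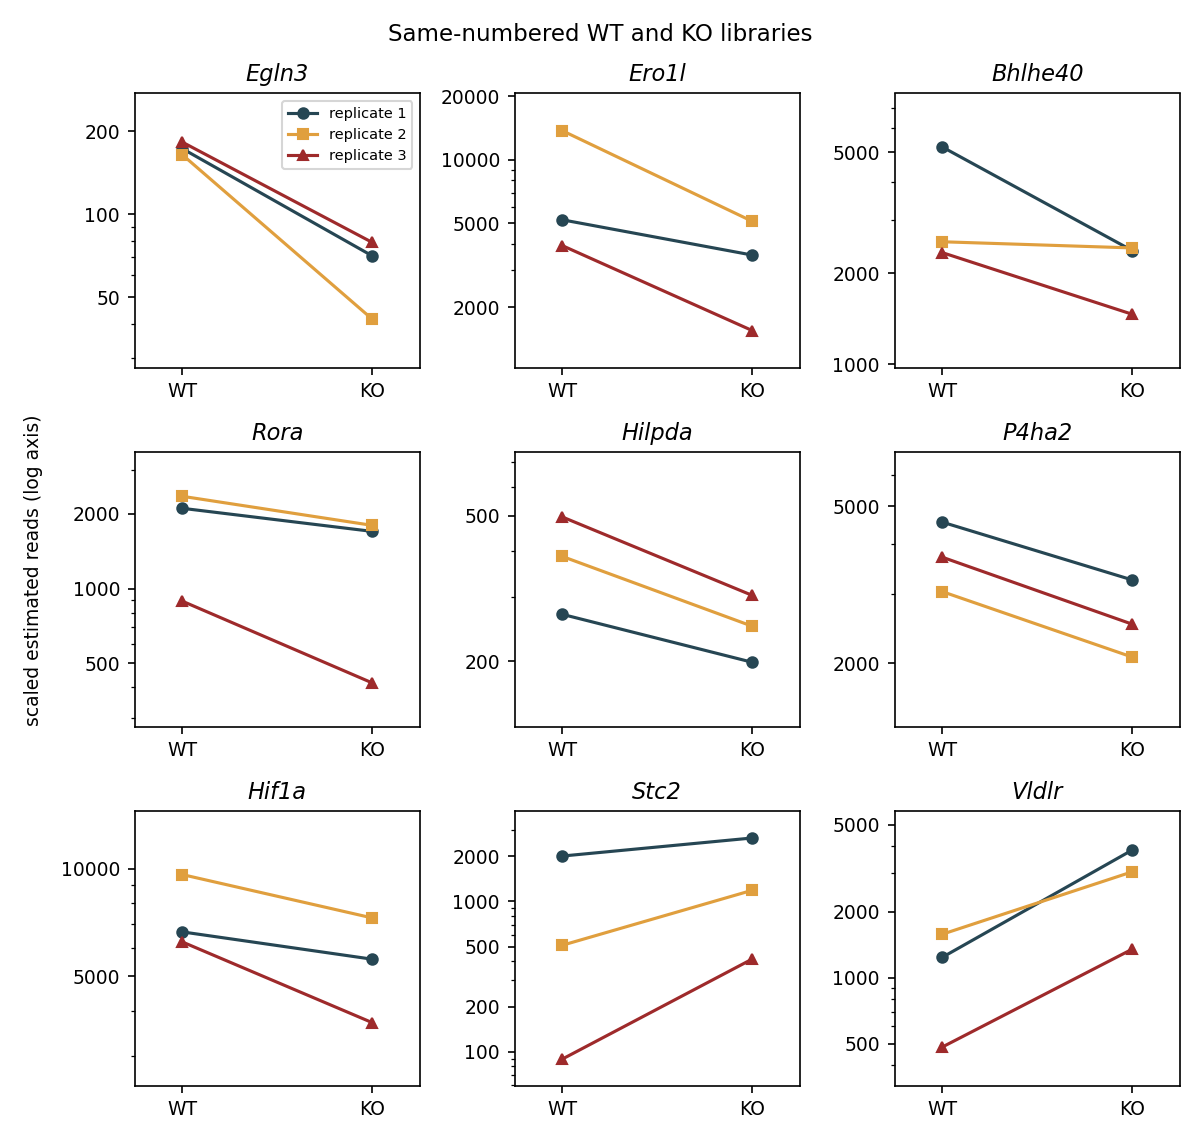
Scaled estimated reads (log axis) of the 9 members with an unadjusted p under 0.05 in limma with the replicate block, with a line joining the WT and KO library of each replicate number. The lines of Egln3, Ero1l, Bhlhe40, Rora, Hilpda, P4ha2 and Hif1a go down from WT to KO in all 3 pairs, and those of Stc2 and Vldlr go up.

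**Figure D4:**
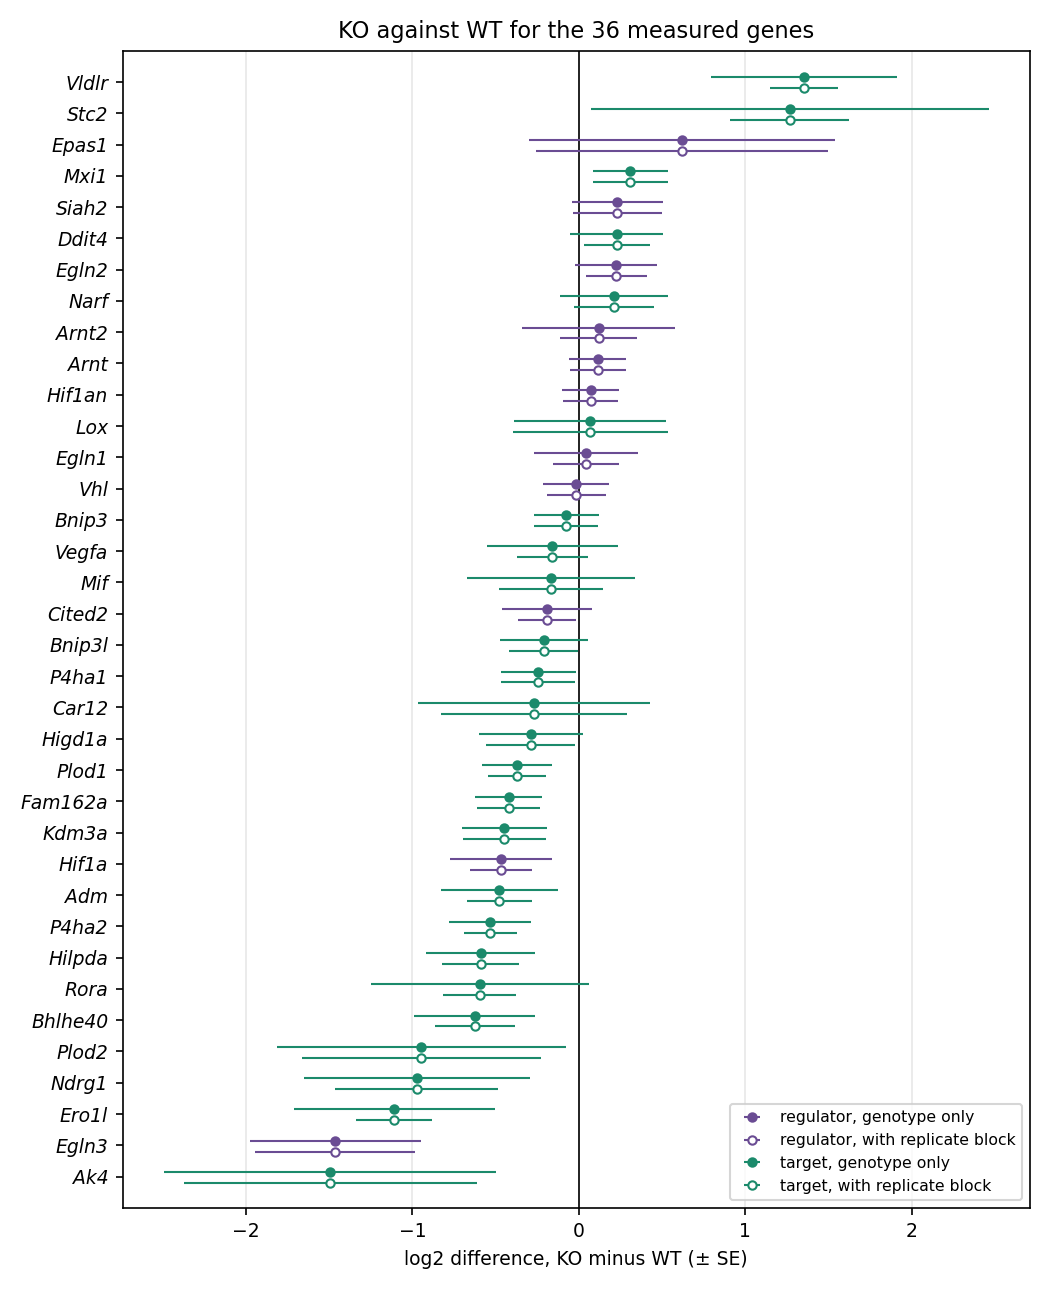
Log2 differences, KO minus WT, with their SE for the 36 measured genes, sorted by size. Filled points are from limma with genotype alone and open points from limma with the replicate block, purple for regulators and green for targets. The block leaves each difference as it is and narrows the error of Stc2 from 1.20 to 0.36 and that of Egln3 from 0.51 to 0.48.

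The ligase and cofactor genes around HIF had a median log2 difference of 0.06 over 16 genes, with 7 below 0, against 49.6% of all genes. Mtor, the growth kinase that raises HIF1A synthesis, had -0.33 (SE 0.22), Usp20, a deubiquitinase that acts on HIF1A, had -0.24 (SE 0.21), Siah1b, a relative of Siah2, had 0.38 (SE 0.42), and Cul2, the scaffold of the VHL ligase, had 0.16 (SE 0.24) in limma. None of the 16 had an unadjusted p under 0.05 in limma, where 3.62% of all genes did.

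Of 42 further non-glycolytic hypoxia targets, 38 were tested, with a median log2 difference of -0.16 and 26 below 0, against 49.6% of all genes. At an unadjusted p under 0.05 in limma, 5 were lower, against 2.15% of all genes, and 2 higher, against 1.46%. Igfbp3, a binding protein for insulin-like growth factors, had 6014, 8053 and 24818 scaled reads in WT and 221, 267 and 2281 in KO, a log2 difference of -4.37 (SE 0.99, limma). Rragd, a guanosine triphosphatase that signals amino acids to mTOR, had 1752, 825 and 912 in WT and 565, 681 and 259 in KO, at -1.24 (SE 0.45, limma). Ppp1r3c, a glycogen-targeting phosphatase subunit, had 87.7, 256 and 267 in WT and 357, 825 and 1083 in KO, at 1.90 (SE 0.57, limma). P4ha3, the third isoform of the prolyl 4-hydroxylase subunit, had 817, 643 and 800 in WT and 1154, 1749 and 3880 in KO, with an unadjusted p of 0.0132 in limma. All 4 had groups that did not overlap, and 10 of the 38 did not, against a background of 8.43%. 

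The glycolytic targets, for comparison, had a median of -0.35 over 19 tested genes, with 17 below 0, against 49.6% of all genes. Of the 19, 3 were lower at an unadjusted p under 0.05 in limma, against 2.15% of all genes, and 0 higher, against 1.46%. Slc2a1, the glucose transporter, stood at -1.21 (SE 0.24) and Hk2, a hexokinase, at -1.09 (SE 0.40) in limma. Pfkp, a phosphofructokinase, stood at -1.12 (SE 0.47) and Pkm, pyruvate kinase, at -0.57 (SE 0.27) in limma. Slc2a1 was the 1 gene of the 19 with an FDR under 0.05 in the authors' deposited table, at 0.0112, against 0.525% of all genes. The difference between the glycolytic and the other targets was not tested.

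In the authors' deposited table of the same comparison, 0 of the 36 members had a false discovery rate (FDR) under 0.05, where 0.525% of 12389 genes did. By its unadjusted p under 0.05 there were 3 members, against 5.3% of genes. These were Egln3, whose log2 ratio in the authors' deposited table was -1.44 at FDR 0.251, Vldlr, with 1.32 and 0.558 in the authors' deposited table, and Ero1l, with -1.17 and 0.88 in the authors' deposited table. Epas1, Stc2 and Plod2, whose libraries spread widely, had log2 ratios of 0.05, 0.70 and -0.12 in the authors' deposited table, each nearer 0 than the difference of log values in limma.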

How the data were processed

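Poly(A)-selected, stranded libraries were sequenced from both ends, per the labels' protocols. The submitters' processing notes name STAR, Partek and DESeq2 as tools and GRCm39 (mm39) as build, and give no roles. Gene coordinates in the authors' deposited comparison nevertheless match GRCm38, with 12341 of 12385 starts as in GENCODE M21. Per-library values deposited by the authors are a scaled signal, estimated reads over a library factor, and not counts, although one table is named so. In the table used, 1 read was worth 0.712 to 1.19, and 83.0% to 92.4% of low values were within 0.05 of whole reads, too few to recover counts. The authors' deposited comparison gives a p-value, an FDR, a log2 ratio and mean signal.

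A test for counts gave way to limma 3.58.1 (R 4.3.3, statmod 1.5.0) on log2(value + 2), with genotype alone, a variance trend and robust priors. Genes needed 10 or more in 3 or more libraries, which 12363 did. Tests were two-sided, with Benjamini-Hochberg adjustment over all genes and a threshold of 0.05. They measure the spread between cultures that the submitters call independent biological replicates. The code was tested on simulated data. Symbols were matched in both deposited tables, and levels per kilobase used merged GENCODE M21 exons. Deviations from the group means correlated at 0.43, 0.15 and 0.39 between WT and KO libraries of the same number, and at -0.40 to 0.02 between others. Deviations within a group sum to 0, so these correlations are not independent of each other. The labels leave the meaning of the number unstated, so the pairing was taken from the same 6 libraries. The p-values with the block do not allow for that choice. Median residual SD was 0.36, and 0.26 with the replicate block.

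Members and lists were chosen with earlier results of these data known. Values in every library were given for HIF subunits, Vhl, Hif1an and Egln genes and for the 12 other members with the smallest p, and the 4 genes with the smallest p of each further list and the 2 highest of each marker list were named. Values of Vegfa, Stc2, Rora, Bnip3l, Plod2, P4ha1, Myh11, Lmod1, Smtn and Cnn1 were added after they were seen. Alternatives were TMM and total scaling, pseudocounts of 1 and 10, no filter or a minimum of 50, the second table, the block, priors without trend, library weights and leaving out each library.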

Additional observations from a re-analysis of the deposited data

How the results depend on the processing

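No member passed an adjusted p of 0.05 in limma under any setting, and the smallest was 0.12, for Egln3 with library quality weights, which rest mainly on WT replicate 2 (weight 7.99, against 0.361 to 1.97 for the other libraries). Of 576 recomputed member differences under 16 settings, 28 had the other sign, and 21 of 36 members kept theirs throughout. With the replicate block, which pairs same-numbered libraries, 2 members were higher and 7 lower at an unadjusted p under 0.05 (3.17% and 4.25% of all genes) and 0 genes were called. Without trend and robust priors 0 members were higher (1.53% of all genes). With library quality weights 30 genes were called and 3 members were higher and 7 lower (8.05% and 10.4% of all genes), and the differences of Mif (0.024), Bnip3 (0.073), Ak4 (0.072) and Ddit4 (-0.067) had the other sign, as did that of Vhl with total scaling (0.016). In blocked fits chosen after seeing the data, with both libraries of replicate 1, 2 or 3 left out, 2, 2 and 3 members were higher and 3, 4 and 4 lower (3.42%, 2.15% and 4.7%, and 3.27%, 3.05% and 5.96%, of all genes), and 0, 15 and 11 genes were called. Leaving out single libraries gave 0 to 1 genes called, 0 to 1 members higher (0.972% to 2.45% of all genes), 0 to 3 lower (1.45% to 3.14%) and a median of the regulators of 0.010 to 0.13. The differences then ran from -0.32 to 1.51 for Epas1, -0.28 to 0.47 for Arnt2, -0.11 to 0.049 for Vhl, -0.23 to 0.33 for Egln1, -0.56 to 0.16 for Vegfa, -0.68 to 0.29 for Mif, -0.37 to 0.035 for Bnip3l, -0.52 to 0.038 for Higd1a, -0.85 to 0.19 for Car12, -0.17 to 0.52 for Lox, -1.04 to 0.091 for Rora and -0.11 to 0.41 for Narf. The cause was not tested.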
